A study of Homo sapiens with 6 samples.

Results

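Genes of glycerolipid synthesis, together with a lipid droplet coat gene and a secreted phospholipase, were read in Capan1, a human pancreatic adenocarcinoma line that keeps ductal features in culture. The 10 genes were GPAT3, GPAT4, AGPAT2, AGPAT3, LPIN1, LPIN2, DGAT1, DGAT2, PLIN2 and PLA2G10, and every array probe annotated to 1 of them was taken. Of the 10 genes 9 had a probe, 13 probes in all, among 47228 probes and 20046 named genes on the array. AGPAT3 had no probe paired with it and is not analysed here. The genes were chosen on the difference between the groups below, as an earlier reading of these arrays had shown it, so their differences are given as a description, and counts among them support nothing.

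The arrays held 3 samples of Capan1 grown with PS1, a pancreatic stellate cell line, and 3 of Capan1 alone. Stellate cells are the fibroblast-like cells that lay down the stroma of pancreatic tumours. Capan1 cells were seeded on gels of type I collagen and Matrigel, with or without PS1 cells embedded in the gel. After 24 hours each gel went onto a metal grid and was fed from beneath until it was frozen on day 10, and RNA came from the cancer cell layer cut out by laser microdissection. Each side of the comparison is 1 cell line, and no source used here says that replicates came from separate cultures, so the spread between arrays may be technical. The titles put 3 samples in each group and are followed here, although another label names PS1 as the exposure of all 6.

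Triglycerides and most phospholipids share a route that starts when a fatty acid is joined to glycerol-3-phosphate by a GPAT enzyme. An AGPAT enzyme adds a second fatty acid to give phosphatidic acid, a lipin removes its phosphate to give diacylglycerol, and a DGAT enzyme adds the last fatty acid to give triglyceride. Triglyceride is stored in droplets coated by perilipins, while phospholipases A2 cut fatty acids such as arachidonic acid out of phospholipids.

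At the level of the whole table, 16325 to 19602 probes were detected on each array with stellate cells and 17785 to 19206 on each array of Capan1 alone. Detected means a detection p under 0.05 against the negative control probes. Replicate 3 with stellate cells stood apart: its large-subunit ribosomal RNA probe ILMN_3251587 read 12.85 on the log2 scale, against 5.97 to 8.32 on the other 5 arrays, and it had the fewest probes detected. Epithelial markers were present, with all 7 detected on all 6 arrays. Of 18 stellate and fibroblast markers 8 were detected on no array, among them COL1A2, PDGFRA, PDGFRB and FAP, and none of the 5 tested passed. Members differed in direction: on the log2 scale TAGLN averaged 5.77 with stellate cells and 4.91 alone (detected on 3 and 0 of 3 arrays), and DCN, not tested, was detected on 2 and 0. ACTA2, in contrast, averaged 5.33 with stellate cells and 6.37 alone (detected on 2 and 3). The list's summed background-corrected intensity was 318 to 433 with stellate cells and 336 to 378 in Capan1 alone. Of 7 adipocyte markers 4 were detected on no array, ADIPOQ, FABP4, PLIN1 and CIDEC. The list summed to 715 to 805 with stellate cells and 657 to 1102 in Capan1 alone. Its brightest gene, LEP, averaged 9.44 on the log2 scale with stellate cells and 9.55 alone (detected on 3 and 3 of 3 arrays). LIPE was detected on 2 and 1, and LPL on 1 and 0. The macrophage list summed to 2123 to 2816 with stellate cells and 1394 to 1762 in Capan1 alone, and 2 of its 7 genes, CD163 and CSF1R, were detected on no array. Its members differed in direction. LYZ, lysozyme, averaged 10.53 on the log2 scale with stellate cells and 9.62 alone, with overlapping groups. CD68 averaged 9.81 with stellate cells and 9.50 alone, in groups that did not overlap, as in 26.1% of all tested genes. ITGAM, in contrast, averaged 5.05 with stellate cells and 5.84 alone (detected on 0 and 3 of 3 arrays). CD14 was detected on 0 and 2, and none of the 3 tested passed. All 8 genes of a G2 and M phase list fell with stellate cells and passed, beside 2.11% of all tested genes called lower. Their median log2 difference was -1.36. After centring each gene on its own mean, the list averaged -0.68, -1.14 and -0.21 on the arrays with stellate cells. On those of Capan1 alone it averaged 0.55, 0.82 and 0.66. The part of these shifts in the values below was not tested. In captured cell layers, fewer cells of a kind and less RNA per cell cannot be told apart.

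GPAT3 was lower and PLA2G10 higher in Capan1 cells grown with stellate cells, while the other 6 tested genes of the group did not pass the threshold. The threshold was a limma adjusted p under 0.05 over the 18165 probes detected on at least 3 of the 6 arrays. By each gene's brightest probe, 1 of the 8 tested genes was called higher and 1 lower, beside 2.65% and 2.11% of the 10781 tested genes of the whole table (4.77% in either direction, and 4.02% of all tested probes). In 3 of the 8 no array of either group lay within the range of the other, GPAT3, DGAT1 and PLA2G10, beside 26.1% of all tested genes. The median log2 difference over the 8 genes was 0.18, against 0.02 over all tested genes. With each array scaled to a common median in place of quantile normalization it was -0.04, a setting that moved the median of all tested probes to -0.20, against -0.01. Nothing is read from these counts, because the genes were picked with this comparison in view.

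The upstream sequences of the pair of genes that passed are shown because these genes moved in opposite directions. Each is the stretch of 250 bases before the gene's start in RefSeq, build GRCh38.p14, written 5′ to 3′ on the gene's own strand, with GC boxes in capitals. GPAT3 lies on the plus strand, chr4:83535857-83536106, and PLA2G10 on the minus strand, chr16:14694309-14694558.
GPAT3: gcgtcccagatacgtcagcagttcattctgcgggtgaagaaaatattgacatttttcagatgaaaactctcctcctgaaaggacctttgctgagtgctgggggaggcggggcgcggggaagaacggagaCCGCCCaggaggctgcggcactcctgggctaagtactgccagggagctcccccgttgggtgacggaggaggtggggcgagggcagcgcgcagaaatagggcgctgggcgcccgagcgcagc
PLA2G10: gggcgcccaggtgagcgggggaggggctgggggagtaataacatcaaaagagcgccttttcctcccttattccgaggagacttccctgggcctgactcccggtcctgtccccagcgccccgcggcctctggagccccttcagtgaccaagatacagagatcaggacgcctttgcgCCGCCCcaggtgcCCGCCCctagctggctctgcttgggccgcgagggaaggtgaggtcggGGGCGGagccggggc
Both strands were searched for TATAAA (the TATA box), CCAAT (the CCAAT box), CACGTG (an E-box), TGANTCA (an AP-1 site) and GGGCGG (the GC box), none of which contains another. GPAT3 held 1 GC box, from 121 to 116 bases before the start. PLA2G10 held 3, at 75 to 70, 62 to 57 and 15 to 10 bases before it. A GC box stood in 42.6% of the 35116 RefSeq stretches of this length. None of the other letters searched was found in either window, and they stood in 10.7% (TATA box), 32.0% (CCAAT box), 6.3% (E-box) and 6.6% (AP-1 site) of all stretches. GC content was 62.4% for GPAT3 and 68.0% for PLA2G10, against a median of 58.0%.

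GPAT3, an endoplasmic reticulum enzyme of the first step, formerly called AGPAT9, was read by probe ILMN_1794875. Its deposited signal was 127, 234 and 149 intensity units on replicates 1, 2 and 3 of the group with stellate cells, against 576, 348 and 462 in Capan1 alone. After background correction and quantile normalization its log2 intensity was 6.22, 6.70 and 6.10 with stellate cells and 8.40, 8.06 and 8.41 alone. All 3 arrays with stellate cells lay below all 3 of Capan1 alone, and replicate 3, the array that stood apart, was the lowest of the 6. The group means were 6.34 ± 0.31 with stellate cells and 8.29 ± 0.20 alone (SD, n = 3 arrays each). GPAT3 was thus 3.87-fold lower, a log2 difference of -1.95 ± 0.22 (SE) with a 95% interval of -2.43 to -1.48. Leaving out 1 array at a time moved it between -2.13 and -1.84. Without background correction the difference was -1.13, which is 2.19-fold lower. From the value table that the authors deposited it was -1.15, or 2.22-fold. Both came after the offset of 16 was added to each value, which shrinks a fold. With background correction and an offset of 50 it was -1.59, or 3.01-fold. The size of the fall therefore depended on the correction and the offset, and the direction did not.

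GPAT4, the closest relative of GPAT3 and an enzyme of the same step, read 6.12, 6.52 and 6.35 on the log2 scale with stellate cells, against 6.34, 6.17 and 6.34 in Capan1 alone, and the groups overlapped. The log2 difference was 0.04 ± 0.22 (SE), with a 95% interval of -0.43 to 0.52. No test compared its difference with that of GPAT3, and the interval for GPAT4 does not reach the interval for GPAT3.

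**Figure D1:**
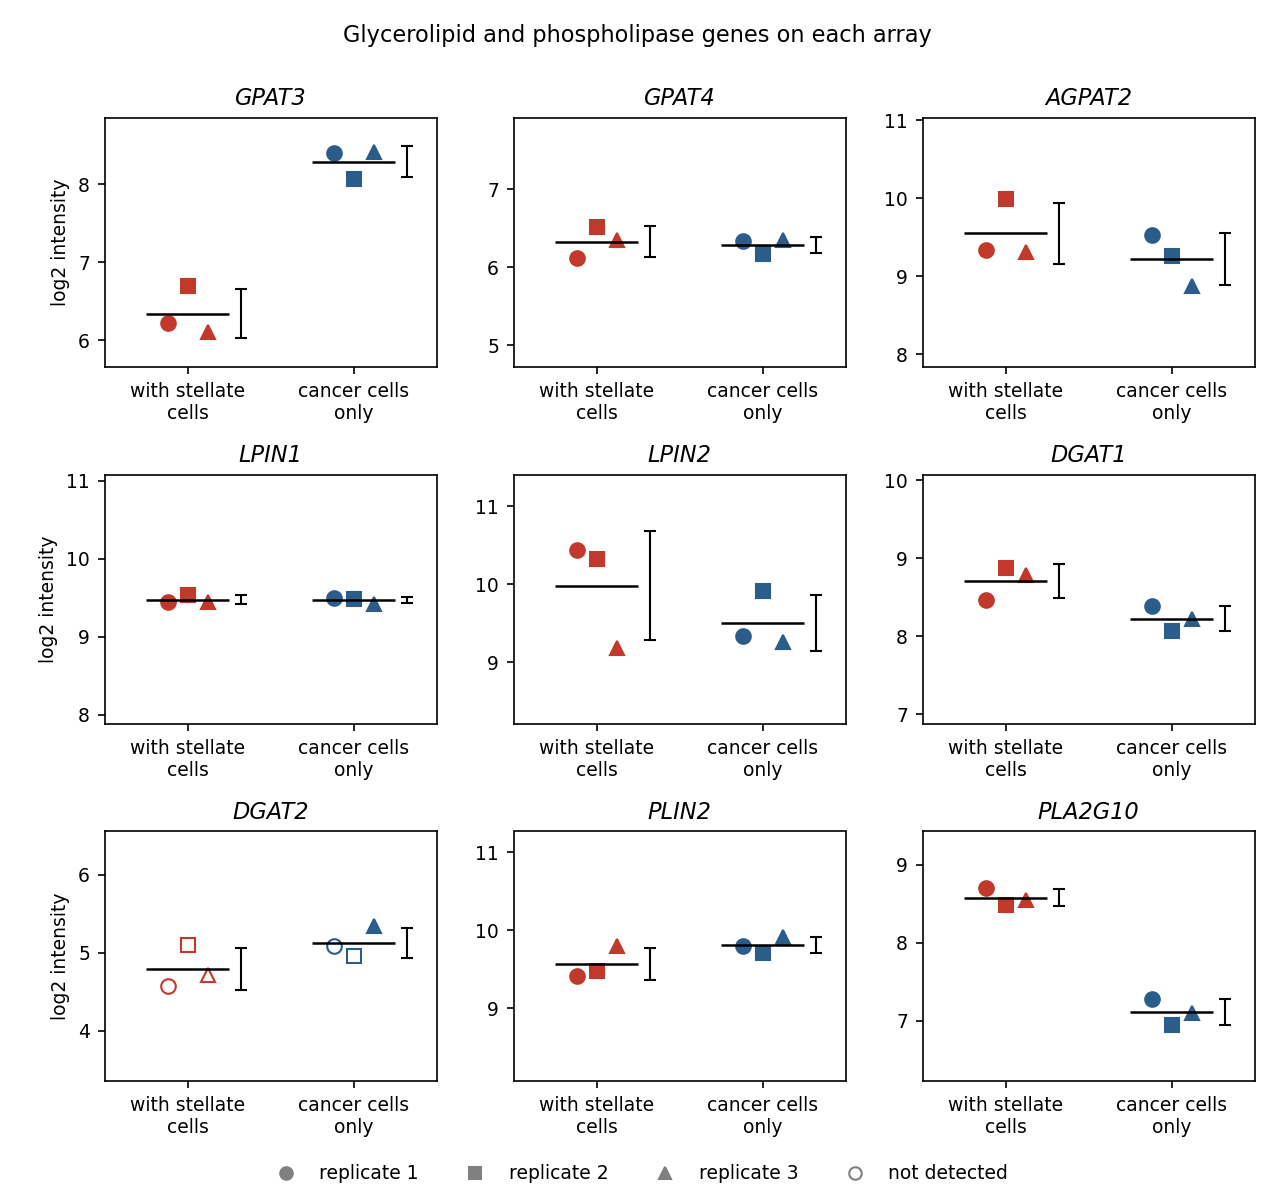
Log2 intensity (y axis) of the brightest probe of each gene on every array, 3 with stellate cells (red) and 3 of cancer cells only (blue), with the group mean as a line and the SD as a bar beside it. Each y axis spans the same log2 range. GPAT3 lies between 6.10 and 6.70 with stellate cells and between 8.06 and 8.41 alone, PLA2G10 shows the opposite gap, and LPIN2 has 1 low array, replicate 3 with stellate cells. Open symbols mark arrays on which DGAT2 was not detected.

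AGPAT2, the enzyme of the second step whose loss causes a congenital lipodystrophy, was read by 3 probes, all with log2 differences above 0. Probe ILMN_2377430, the brightest and annotated to 1 RefSeq transcript, read 9.34, 10.00 and 9.31 on the log2 scale with stellate cells and 9.53, 9.26 and 8.87 alone. These groups overlapped, and the log2 difference was 0.33 ± 0.22 (SE), with a 95% interval of -0.16 to 0.81. Probe ILMN_1681081, annotated to another transcript, read 7.53, 7.64 and 7.62 with stellate cells, against 7.11, 6.77 and 6.95 in Capan1 alone. Here the groups did not overlap, at 0.65 ± 0.19 (SE), a value that did not pass the threshold over all probes. It did without replicate 3 with stellate cells, at 0.64, and with array weights, at 0.61. In those settings 1339 of 17764 and 1632 of 18165 tested probes were called higher, against 366 of 18165 in the main fit. Probe ILMN_1732176, annotated to the same transcript as ILMN_1681081, had a difference of 0.16 ± 0.18 and overlapping groups. With each array scaled to its median that last value was -0.09.

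The lipins convert phosphatidic acid to diacylglycerol, and the 2 measured family members differed in their spread between arrays. LPIN1, which also acts as a transcriptional coactivator, read 9.45, 9.54 and 9.44 on the log2 scale with stellate cells and 9.50, 9.49 and 9.42 alone. All 6 arrays lay close together, and the log2 difference was 0.01 ± 0.14 (SE), with a 95% interval of -0.31 to 0.32. Its sign was not stable: it was -0.26 with median scaling.

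LPIN2, mutated in the inflammatory bone disease Majeed syndrome, was split among the arrays with stellate cells. Probe ILMN_1670028 read 10.44, 10.33 and 9.18 on replicates 1, 2 and 3 of the group with stellate cells, against 9.33, 9.91 and 9.26 in Capan1 alone. Replicates 1 and 2 lay above every array of Capan1 alone, and replicate 3 lay below them all. The dimmer probe ILMN_2133100 had the same order, at 6.71, 6.58 and 5.13 with stellate cells and 5.38, 5.64 and 5.26 alone, and was not detected on that replicate 3. The log2 differences were 0.48 ± 0.29 (SE), with a 95% interval of -0.16 to 1.12, and 0.71 ± 0.37, with one of -0.09 to 1.52, and neither passed. When replicate 3 with stellate cells was left out they were 0.87 ± 0.18 and 1.27 ± 0.25 and both passed. In that setting 9.61% of all tested genes were called higher. With limma's array weights, where 11.4% of all tested genes were called higher and 9.90% lower, the brighter probe passed as well, at 0.90. Leaving out any other single array gave 0.25 to 0.68 for the brighter probe with no call. Whether LPIN2 passes thus depends on 1 array.

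**Figure D2:**
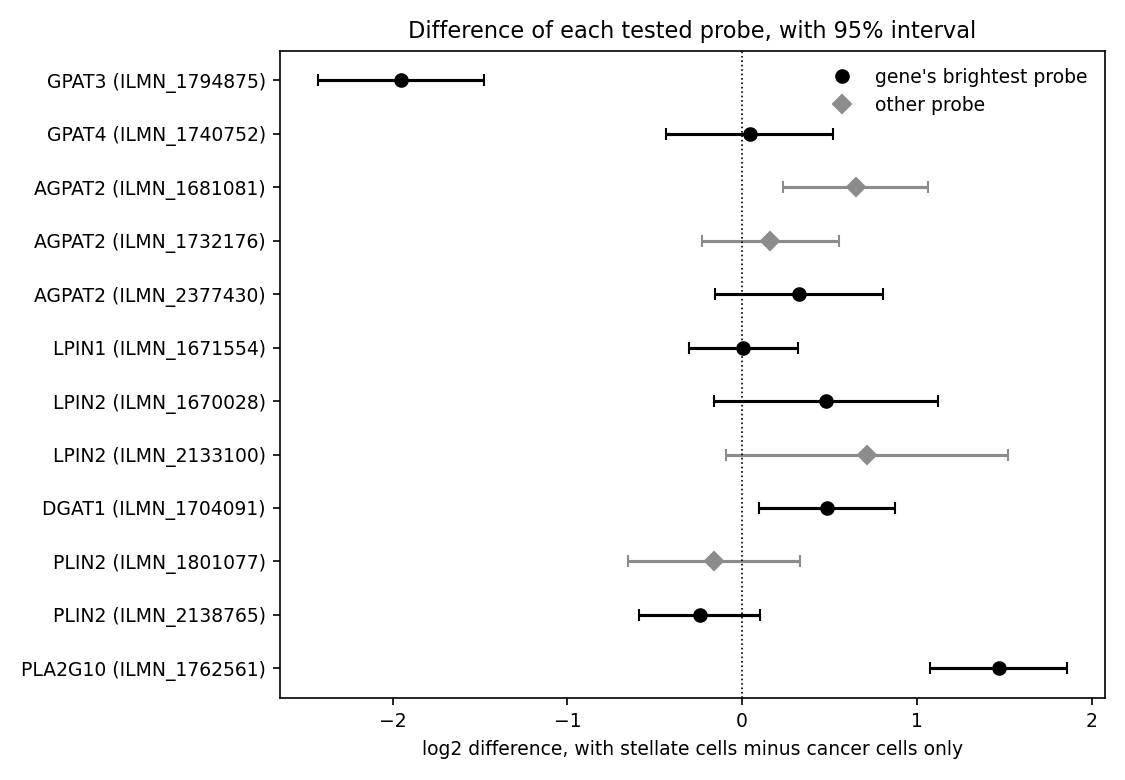
Log2 difference (x axis), with stellate cells minus cancer cells only, of each of the 12 tested probes, with its 95% interval from the limma fit on 6 arrays. GPAT3 lies at -1.95 and PLA2G10 at 1.47. The interval of DGAT1 and that of 1 of the 3 AGPAT2 probes also lie above 0, and the other intervals include 0.

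DGAT1, which makes triglyceride in the endoplasmic reticulum, read 8.47, 8.87 and 8.79 on the log2 scale with stellate cells and 8.38, 8.07 and 8.22 alone. The groups did not overlap, though the lowest array with stellate cells and the highest alone were close. The log2 difference was 0.48 ± 0.18 (SE), with a 95% interval of 0.09 to 0.87, and it did not pass the threshold over all probes. With median scaling it was 0.22. DGAT2, an unrelated protein that catalyses the same reaction, had deposited signals of 83.8, 140 and 114 with stellate cells and 145, 124 and 142 alone. Detection succeeded on 0 of 3 arrays with stellate cells and on 1 of 3 arrays of Capan1 alone, so DGAT2 was not tested and no fold is given.

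PLIN2, the perilipin that coats lipid droplets in most cell types, was read by a pair of probes. The brighter, ILMN_2138765, read 9.41, 9.48 and 9.80 with stellate cells, against 9.79, 9.71 and 9.92 in Capan1 alone. Replicates 1 and 2 lay below every array alone and replicate 3 lay inside their range. The log2 difference was -0.24 ± 0.16 (SE), with a 95% interval of -0.59 to 0.10, and without replicate 3 with stellate cells it was -0.35. Probe ILMN_1801077 read 7.62, 8.03 and 8.48 with stellate cells and 8.13, 8.05 and 8.44 alone, a difference of -0.16 ± 0.23. Without replicate 1 with stellate cells that value was 0.05. Neither probe passed.

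PLA2G10, the secreted phospholipase A2 that releases arachidonic acid from phosphatidylcholine in outer membranes, was read by probe ILMN_1762561. Its deposited signal was 368, 549 and 352 with stellate cells, against 320, 213 and 246 in Capan1 alone. After normalization its log2 intensity was 8.70, 8.49 and 8.55 with stellate cells and 7.28, 6.95 and 7.10 alone. All 3 arrays with stellate cells lay above all 3 of Capan1 alone, and replicate 3 lay between the other arrays of its group. The group means were 8.58 ± 0.11 with stellate cells and 7.11 ± 0.16 alone (SD, n = 3 arrays each). PLA2G10 was 2.77-fold higher, a log2 difference of 1.47 ± 0.18 (SE) with a 95% interval of 1.08 to 1.86. With single arrays removed it stayed between 1.39 and 1.54. Without background correction it was 0.98, or 1.97-fold, and it came to 0.99, or 1.99-fold, from the value table that the authors deposited. The offset of 16 was added to the values in both. RefSeq lists 8 pseudogene copies named after PLA2G10, and how far the probe also reads them was not tested.

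**Figure D3:**
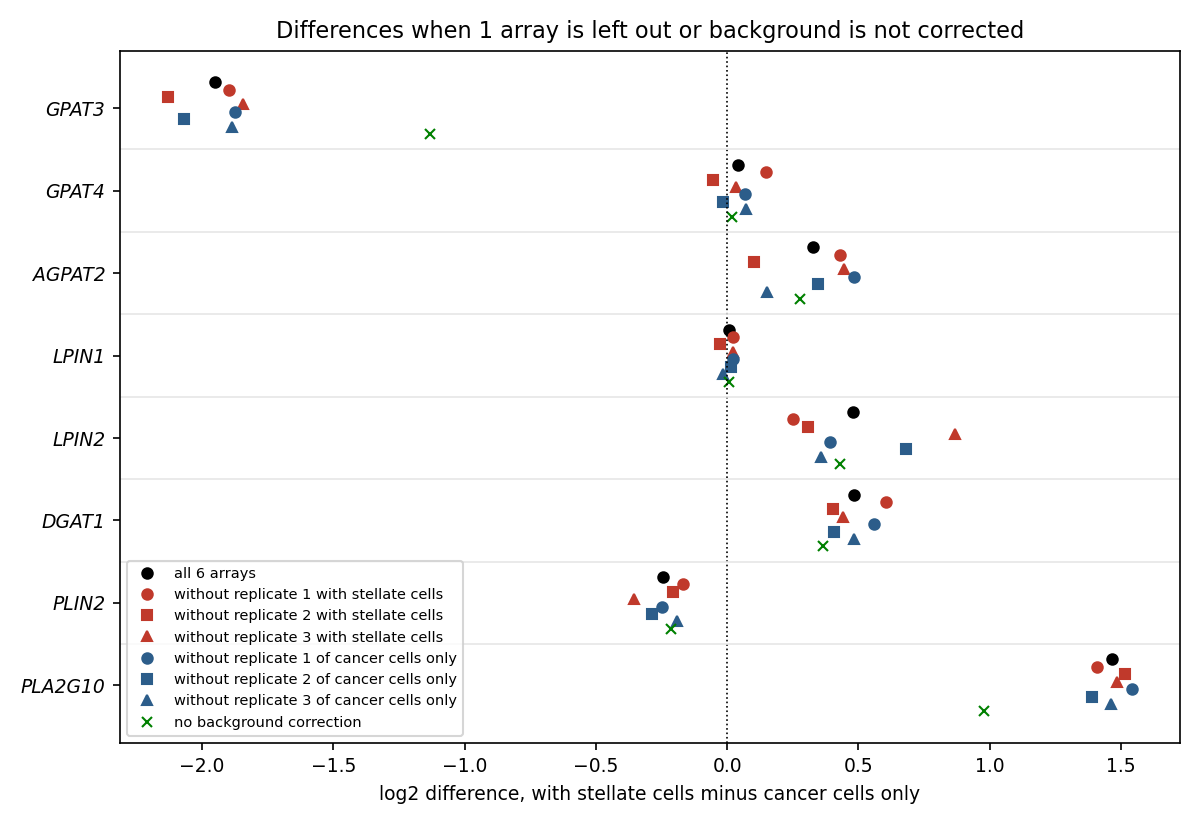
Log2 difference (x axis), with stellate cells minus cancer cells only, of the 8 tested genes with all 6 arrays, with each array left out in turn, and without background correction. GPAT3 stays between -2.13 and -1.84 and PLA2G10 between 1.39 and 1.54 when 1 array is left out. LPIN2 moves to 0.87 without replicate 3 with stellate cells. GPAT4 and LPIN1 lie on both sides of 0.

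Over the 6 arrays, the named genes whose log2 intensity followed GPAT3 most closely were LMNB2, a lamin of the nuclear envelope, LAMB1, a laminin chain, and CEP135, a centriole protein. Their Pearson r was 0.997, 0.994 and 0.993 (n = 6 arrays that fall into 2 groups, over 10781 genes searched). Their own log2 differences, all below 0, were -0.62, -0.60 and -0.95. Those closest to PLA2G10 were GDF15, a stress-induced cytokine, TRAPPC6A, a vesicle tethering subunit, and CYB5R1, a cytochrome b5 reductase, with r of 0.998, 0.997 and 0.996. Their log2 differences were 1.00, 1.31 and 0.73. These are descriptions of 6 points, and any gene that separates the groups in the same direction scores highly.

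The wider lipid pathway was read through 9 lists of 156 further genes, of which 98 were tested. Of these 98, SLC27A1 rose with stellate cells and FABP5 and PLCD3 fell. That is 1.02% called higher and 2.04% lower, beside 2.65% and 2.11% of all tested genes, and the median log2 difference of the 98 was 0.10. At an unadjusted limma p under 0.05, 15 of the 98 were higher (15.3%) and 4 lower (4.08%), beside 11.1% and 9.25% of all tested genes. In both directions together that is 19.4% of the pathway genes and 20.4% of all tested genes, so the number of pathway genes under this p lay near the background.

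SLC27A1, the fatty acid transport protein FATP1, averaged 7.68 ± 0.37 on the log2 scale with stellate cells and 6.67 ± 0.08 alone, 2.01-fold higher (SD, n = 3, limma adjusted p = 0.027). FABP5, a cytosolic fatty acid carrier of epithelia, was 2.36-fold lower, at 9.16 ± 0.57 with stellate cells and 10.40 ± 0.19 alone (SD, n = 3, limma adjusted p = 0.017), and both of its tested probes passed. RefSeq lists 15 pseudogenes of FABP5, so its share of the signal is uncertain. PLCD3, a phospholipase C that cuts phosphoinositides, was 1.80-fold lower, at 7.91 ± 0.10 with stellate cells and 8.75 ± 0.02 alone (SD, n = 3, limma adjusted p = 0.015). In all 3 genes the groups did not overlap. Leaving out any 1 of the arrays other than replicate 3 with stellate cells left 0 of the 3 calls in limma, with 10 to 16 of the pathway genes at an unadjusted p under 0.05 (10.4% to 16.5%, beside 14.2% to 17.4% of all tested genes). Without that replicate 3, 12 pathway genes were higher and 3 lower, beside 9.61% and 8.11% of all tested genes. They included PLCD1 and PLCB1, phospholipases C, at 1.33 and 1.24 on the log2 scale, and PLAAT3, MBOAT7 and GNPAT, at 0.81, 0.79 and 0.55, with DGKD, a diacylglycerol kinase, as the third that was lower. PLCD1, PLCB1 and DGKD were named after their values were seen.

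SLC27A1 and FABP5 stood in the list of fatty acid uptake, binding and activation. It had 11 tested genes, 9 above 0, with a median of 0.31. At an unadjusted p under 0.05, 4 were higher and 1 lower. PLCD3 stood in that of phospholipases C and D, diacylglycerol kinases and lipid phosphatases. It had 17 tested genes, 11 above 0, with a median of 0.20, and 3 were higher and 2 lower at that p. In the remaining lists no gene passed in limma. The counts of all 9 lists at an unadjusted p under 0.05 stand beside 20.4% of all tested genes, 11.1% higher and 9.25% lower. With so few genes a list nothing is read from them. Of 8 other tested genes of the triglyceride route, 3 lay above 0 and 5 below, with a median of -0.14. At an unadjusted p under 0.05, 1 was higher and 1 lower. Its gene with the highest mean, GNPAT, which starts ether lipid synthesis in peroxisomes, had a log2 difference of 0.46 ± 0.15 (SE, limma adjusted p = 0.12). The 17 tested genes of phospholipid head-group synthesis centred on 0, with a median of -0.00084, 8 above 0 and 9 below, and 0 at an unadjusted p under 0.05. PTDSS1, a phosphatidylserine synthase, had a value of -0.25 ± 0.15 (limma adjusted p = 0.42). Of 6 lysophospholipid acyltransferases 4 lay above 0, 1 of them at an unadjusted p under 0.05, with a median of 0.08. That was MBOAT7, which puts arachidonic acid on lysophosphatidylinositol, at 0.64 ± 0.17 (limma adjusted p = 0.060).

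Among 5 tested genes of the lipid droplet coat and its assembly 4 lay above 0, 1 at an unadjusted p under 0.05, with a median of 0.15. PLIN3, a perilipin of nascent droplets, was at 0.24 ± 0.14 (SE, limma adjusted p = 0.41), while 7 of the 12 genes on the array, PLIN1 among them, were not tested for want of detection. Of 10 triglyceride and diacylglycerol lipases 6 lay above 0, 3 at an unadjusted p under 0.05 (again beside 20.4% of all tested genes), with a median of 0.16. LIPA, the acid lipase of lysosomes, had a value of 0.41 ± 0.16 (limma adjusted p = 0.17). For the family of PLA2G10, 12 other phospholipase A2 genes and relatives were tested and 12 were not, and 9 of the 12 tested lay above 0, 1 at an unadjusted p under 0.05, with a median of 0.12. PLAAT3, an intracellular phospholipase A of adipocytes and other cells, was at 12.15 ± 0.32 with stellate cells and 11.52 ± 0.16 alone (SD, n = 3, limma adjusted p = 0.064). The transcription factors of lipid synthesis had 12 tested genes, 9 above 0 and 1 at an unadjusted p under 0.05, with a median of 0.15. CEBPB, which takes part in adipocyte differentiation, had a value of -0.14 ± 0.18 (SE, limma adjusted p = 0.73).

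**Figure D4:**
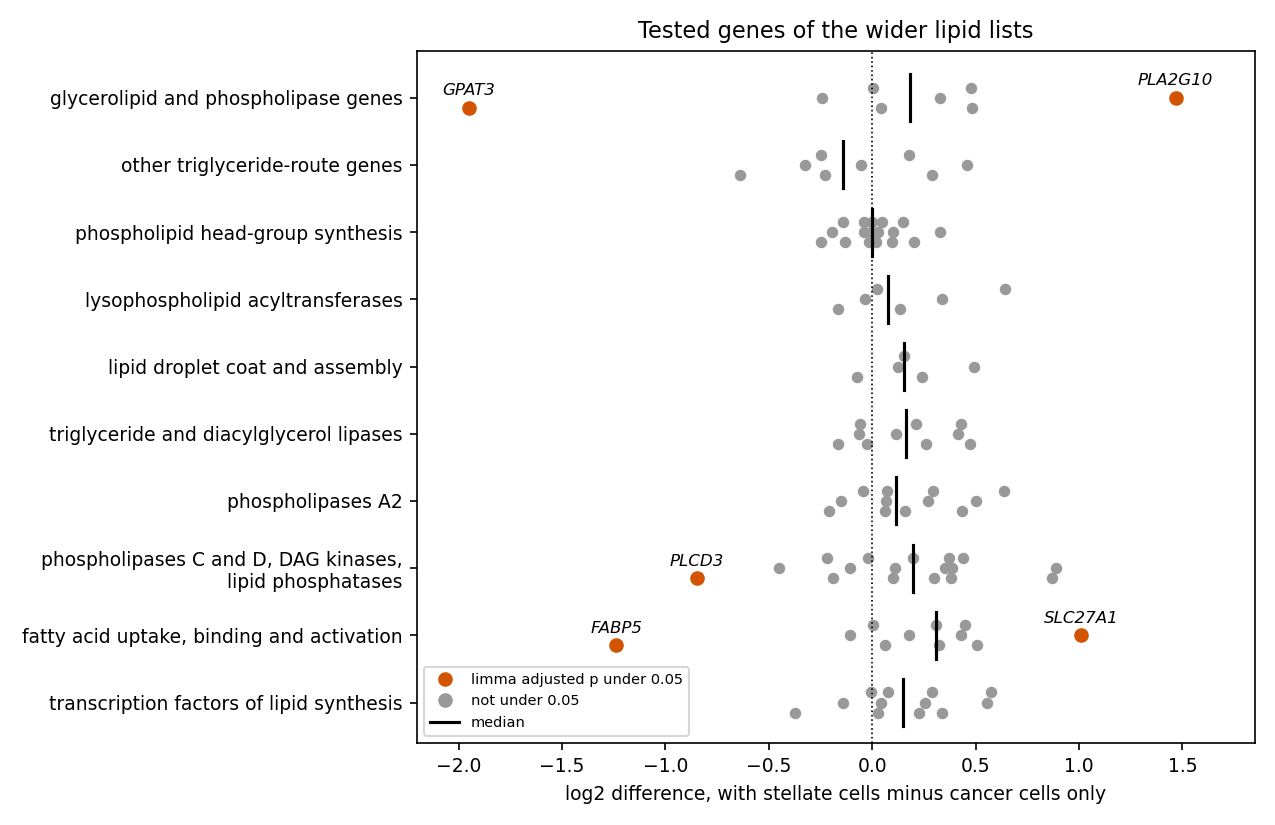
Log2 difference (x axis), with stellate cells minus cancer cells only, of each tested gene in the glycerolipid and phospholipase group (top row) and in 9 lists of other lipid genes, with the median of each as a bar. Orange points passed a limma adjusted p under 0.05 over all probes: GPAT3 and PLA2G10 in the top row, and PLCD3, FABP5 and SLC27A1 among the 98 others. DAG stands for diacylglycerol.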

How the data were processed

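Biotinylated cRNA, made with an Ambion MessageAmp kit per the labels' protocols, was read on Illumina arrays. The deposited table holds an intensity and a detection p-value per probe and array, per the file headers, not normalized between arrays. The submitters' processing notes list BeadStudio and GenomeStudio 2011.1 without saying what each did. A second deposited table holds the authors' processed values of the same arrays, linear intensity that is not centred by gene, with medians of 122.90 to 122.96. Its background treatment is not given in the sources used here, and it served as an alternative.

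The normexp correction of limma was run from the detection p-values with an offset of 16, followed by quantile normalization and log2. In the alternatives without background correction and with the authors' values, the same offset was added to each value before log2. A probe entered the test if its detection p was under 0.05 on 3 or more arrays, which left 18165 of 47228. The test was lmFit and eBayes with an intensity trend (limma 3.58.1 in R 4.3.3), two-sided, and p-values were adjusted over all tested probes by Benjamini-Hochberg. A 95% interval is that fit's. The number of arrays limits the precision. Each gene stands by its brightest tested probe. Probes were named through the platform annotation, with symbols updated by RefSeq (GRCh38.p14), 13986 with 1 symbol and 4179 with several or none.

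The members and the lists were chosen with earlier results of these data known. Genes named were all members, each list's calls or, with none, its gene with the highest mean, and the 3 genes most like GPAT3 and PLA2G10. The fit was tested on simulated data. Figures used matplotlib 3.10.9. The alternatives were other background corrections, offsets, normalizations, filters, variance models, array weights, a replicate block, probe averages, the deposited value table and leaving out each array.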

Additional observations from a re-analysis of the deposited data

How the results depend on the processing

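Over the 18 alternatives, the calls of GPAT3 and PLA2G10 kept their direction and their side of the threshold in all 18, with log2 differences of -2.14 to -1.13 and 0.98 to 1.54. By their brightest probes, AGPAT2, DGAT1 and PLIN2 stayed without a call in all 18. LPIN2 gained one with array weights, at 0.90, and without replicate 3 with stellate cells, at 0.87. GPAT4 turned to -0.13 with median scaling and to -0.050 with array weights, and ran from -0.054 to 0.15 with 1 array left out. LPIN1 turned to -0.26 with median scaling and ran from -0.025 to 0.023 with 1 array left out. The cause was not tested.

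Of the 8 tested member genes, 2 were called higher with array weights and 1 to 2 with 1 array left out. The count lower stayed at 1. Of all tested genes, 2.65% were called higher and 2.11% lower in the main fit. With array weights these shares were 11.4% and 9.90%, and without replicate 3 with stellate cells 9.61% and 8.11%. There were 98 other pathway genes tested, or 95 to 98 with 1 array left out. Among them the count higher was 1 with all arrays, 0 with median scaling, 18 with array weights and 2 with probe averages. It was 0 to 12 with 1 array left out, the top without replicate 3 with stellate cells. The count lower was 2 with all arrays, 1 without the intensity trend, 4 with array weights and 0 to 3 with 1 array left out. Of the 18165 tested probes, 366 were higher and 364 lower, against 83 and 437 with median scaling, 201 and 191 without the intensity trend, and 1632 and 1725 with array weights. With 1 array left out, and 17136 to 17764 probes tested, they numbered 87 to 1339 and 61 to 1389. The top of each range came without replicate 3 with stellate cells. With the replicate number as a block, 2 other pathway genes were higher, PLAAT3 being added at 0.64 (limma adjusted p = 0.037), and 375 probes were higher and 408 lower. Deviations of same-numbered arrays from their group means had correlations of -0.02, -0.03 and 0.08. Those of unlike-numbered arrays ran from -0.08 to 0.09. With 3 arrays per group, these values cannot tell whether the numbers pair the arrays. DGAT2 and the other probes near background have no measured fold.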
